A study of Mus musculus with 4 samples.

Results

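Caveolae are small flask-shaped pits of the plasma membrane, and in many vessels they carry plasma proteins across the endothelial cell (EC), the cell that lines the vessel. Caveolins insert into the membrane of the pit, cavins form the coat around it, and EHD ATPases and pacsins shape or hold its neck. PLVAP, a protein of its own family, forms the thin diaphragm that closes the neck of caveolae and the fenestrae of permeable capillaries. Brain capillaries carry few caveolae and normally lack the diaphragm, whereas vessels in the tough membrane under the skull, the dura mater, have no blood-brain barrier.

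The 9 genes described here are the caveolins Cav1 and Cav2, the cavins Cavin1, Cavin2 and Cavin3 (listed in the tables under the older symbols Ptrf, Sdpr and Prkcdbp), Ehd2, Ehd4, Pacsin2 and Plvap. They were chosen by symbol from 23282 listed symbols, each stood on 1 line of the tables, and all 9 passed the filter on low counts and were tested among 9347 genes. RNA came from ECs of the brain parenchyma (2 libraries) and of the dura mater (2 libraries) of C57BL/6J mice 8 weeks of age. According to the methods of the study, the cells were dissociated enzymatically and sorted by fluorescence with antibodies to CD31, CD45 and TER-119, after a magnetic enrichment for CD31 that is described for brain. The gate is not given in the sources used here. The labels name no transgene, treatment or injury, and whether a library pooled several mice is not stated in the sources used here. Nothing states that the libraries of 1 tissue came from separate mice, so p-values measure only the spread between these libraries.

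Libraries held 13518973 to 16096203 counts, and levels are given as CPM, the count scaled to a common library size after trimmed-mean (TMM) normalisation. All 10 endothelial markers examined were counted in each library, with a summed level of 9562 and 12170 CPM in brain ECs and 8254 and 10590 CPM in dura mater ECs. Replicates disagreed for many genes: of 8212 symbols that reached 64 counts in either brain library, 2572 had 7 or fewer in the other, and in the dura mater this held for 3210 of 10447. In 2800 of the latter replicate 2 was the higher library, and it had the most symbols with 64 or more counts (9835 against 6608 to 7281 in the other libraries). The common biological coefficient of variation was 1.39. With 2 libraries a tissue, an exact two-sided permutation test of 1 gene cannot go below p = 0.333, so tests are those of edgeR across all genes.

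The region before the start site is shown for a pair of neighbouring genes and a pair of paralogs whose values in the tissues are set side by side below. Windows of 250 bases before the most upstream RefSeq start (GRCm38.p6) were found for 7 of the 9 genes. No window was matched to Plvap or Cavin3 in the set used here. Distances are to the RefSeq start, whereas the gene spans given below are from GENCODE and begin further upstream for Ehd4, Ehd2 and Cavin1. The Cavin1 window therefore lies inside its gene span. The ends of the Ehd4 and Ehd2 windows nearest the start, with the Ehd4 GC box, also lie inside the spans. Each line runs 5′ to 3′ on the strand of the gene, and capitals mark matches on either strand to any of 7 motifs. The AP-1 motif was searched as the letters TGACTCA, the GC box as the letters GGGCGG and the CCAAT box by its name. For the TATA box the letters were TATAAA, for the core bound by TCF/LEF factors they were CTTTGA, for forkhead factors they were GTAAACA, and for ETS factors they were CGGAAG.
Cav1 (chr6:17306085-17306334, plus strand): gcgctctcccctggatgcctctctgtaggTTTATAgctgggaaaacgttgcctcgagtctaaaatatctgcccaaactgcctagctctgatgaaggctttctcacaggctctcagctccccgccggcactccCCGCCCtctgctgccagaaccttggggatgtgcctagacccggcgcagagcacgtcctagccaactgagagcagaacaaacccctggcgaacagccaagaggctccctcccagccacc
Cav2 (chr6:17280935-17281184, plus strand): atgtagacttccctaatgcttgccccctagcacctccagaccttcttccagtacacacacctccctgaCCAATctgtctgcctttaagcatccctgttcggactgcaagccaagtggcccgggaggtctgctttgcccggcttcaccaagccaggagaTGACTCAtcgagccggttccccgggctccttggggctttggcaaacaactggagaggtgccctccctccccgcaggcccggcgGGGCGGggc
Ehd4 (chr2:120154576-120154825, minus strand): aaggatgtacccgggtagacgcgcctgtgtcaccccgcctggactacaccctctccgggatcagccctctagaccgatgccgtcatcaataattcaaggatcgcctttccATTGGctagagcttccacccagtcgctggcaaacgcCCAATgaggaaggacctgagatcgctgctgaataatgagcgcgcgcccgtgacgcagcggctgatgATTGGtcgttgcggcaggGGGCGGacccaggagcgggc
Ehd2 (chr7:15967536-15967785, minus strand): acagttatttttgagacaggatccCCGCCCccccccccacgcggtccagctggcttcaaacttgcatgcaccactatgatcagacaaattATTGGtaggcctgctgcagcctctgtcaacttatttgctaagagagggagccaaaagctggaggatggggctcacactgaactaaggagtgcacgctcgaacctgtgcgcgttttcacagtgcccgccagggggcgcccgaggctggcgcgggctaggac

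No marked match overlapped another in these windows. The Cav1 window held a GC box 118 bases and a reverse-strand TATA match 221 bases before the start, and no CCAAT. The Cav2 window held a CCAAT 182 bases, an AP-1 match 92 bases and a GC box 9 bases before the start. The Ehd4 window held CCAAT 3 times, 140, 104 and 38 bases before the start, and a GC box at 20 bases, whereas the Ehd2 window held 1 CCAAT at 160 bases and a GC box at 226 bases. Over the 7 windows, 6 held a CCAAT and 6 a GC box, against 33.8% and 32.7% of all 32851 windows of that length, and their GC content ran from 40.4% (Cavin2) to 67.6% (Cavin1) beside a median of 52.4% over all windows. The AP-1 letters stood in 1 of the 7 (4.5% of all windows) and the TATA letters in 1 (12.4%). The TCF/LEF, forkhead and ETS letters, which 13.8%, 3.2% and 13.6% of all windows hold, were in none of the 7.

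The tissues differed most in the diaphragm gene. Plvap (chromosome 8, 71497765 to 71511752, minus strand, GRCm38) had 0 and 8 counts in brain ECs, against 12469 and 20241 counts in dura mater ECs. As CPM it was at 0 and 0.605 in brain ECs and at 930 and 1240 in dura mater ECs, so that the lowest dura mater library was 1538-fold above the highest brain library. That ratio rests on 8 counts, whose exact 95% Poisson interval is 3.45 to 15.8 and covers counting error only. The log2 fold change, dura mater over brain, was 11.28 (SE 1.30, edgeR adjusted p = 0.0248), and Plvap was the only one of the 9 genes to pass an adjusted p under 0.05, a threshold passed by 0.61% of the 9347 genes in either direction and by 0.428% as higher. Its call was lost in limma-voom (log2 fold change 12.84, adjusted p = 0.0507), and a filter of 10 counts in every library removed the gene. The log2 fold change depends on the prior count for a gene this low in 1 group, and it ran from 10.46 without brain replicate 1 to 12.94 without brain replicate 2, with Plvap called in each case. In bulk libraries, fewer cells that express a gene and less RNA in each cell cannot be told apart.

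**Figure D1:**
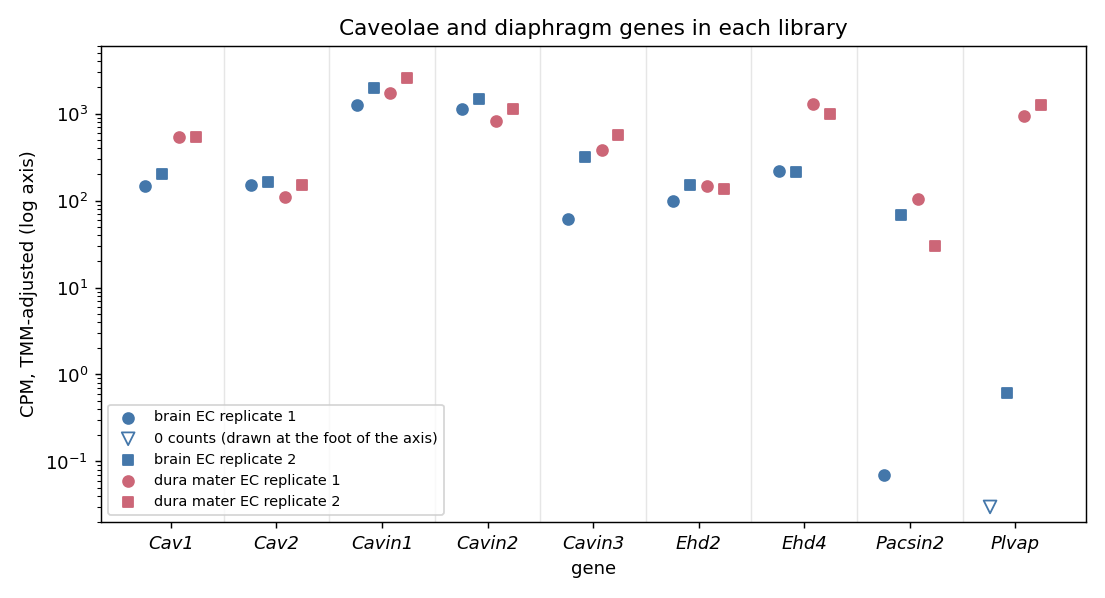
CPM (log axis) of the 9 caveolae and diaphragm genes in each library, brain ECs in blue and dura mater ECs in red, with circles for replicate 1, squares for replicate 2 and an open triangle at the foot of the axis for 0 counts. Plvap lies at 0 and 0.605 CPM in brain and at 930 and 1240 CPM in dura mater ECs, Ehd4 and Cav1 lie higher in both dura mater libraries, and Cav2, Cavin1, Cavin2 and Ehd2 overlap between the tissues.

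The caveolins showed different patterns, which were not tested against each other. Cav1, the caveolin without which ECs form no caveolae (chromosome 6, 17306335 to 17341452, plus strand), stood at 148 and 202 CPM in brain ECs and at 538 and 534 CPM in dura mater ECs. Both dura mater libraries lay above both brain libraries, 2.65-fold at the nearest libraries, and the mean was 3.06-fold higher. The log2 fold change was 1.61 (SE 0.41, 95% interval 0.63 to 2.60), but it did not pass over all genes (edgeR adjusted p = 0.259, unadjusted p = 0.00675). It passed without brain replicate 2 (adjusted p = 0.0279) and under none of the other settings tried.

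Cav2, which joins Cav1 in the same oligomers, ends 17.2 kb before the start of Cav1 on the same strand (chromosome 6, 17281185 to 17289115). It was at 149 and 165 CPM in brain ECs and 109 and 152 CPM in dura mater ECs, so the groups overlapped. Its log2 fold change was −0.27 with an SE of 0.58 (edgeR adjusted p = 1.00), and the 95% interval of −1.68 to 1.14 leaves room for a change in either direction. Within a library, where scaling plays no part, the log2 ratio of Cav2 to Cav1 counts was 0.01 and −0.29 in brain ECs, against −2.30 and −1.81 in dura mater ECs. The ratio was thus lower by 1.92 on the log2 scale in the dura mater, with a gap of 1.52 between the nearest libraries and a spread of at most 0.49 within a tissue.

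Among the cavins, the coat genes, none passed. Cavin1, the core coat protein (chromosome 11, 100956733 to 100970887, minus strand), was at 1248 and 1968 CPM in brain ECs and 1748 and 2584 CPM in dura mater ECs. These groups overlapped, with a log2 fold change of 0.43 (SE 0.36, 95% interval −0.43 to 1.29, edgeR adjusted p = 0.910). Cavin2, which partners Cavin1 and helps to curve the membrane (chromosome 1, 51289126 to 51302960, plus strand), stood at 1126 and 1477 CPM in brain ECs and 832 and 1129 CPM in dura mater ECs. The higher dura mater library reached just above the lower brain library, and the log2 fold change was −0.41 (SE 0.33, 95% interval −1.21 to 0.39, edgeR adjusted p = 0.898).

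Cavin3, a regulatory cavin (chromosome 7, 105480083 to 105482300, minus strand), was at 60.9 and 321 CPM in brain ECs and 380 and 567 CPM in dura mater ECs. The dura mater libraries were both higher, but the brain libraries themselves were 5.27-fold apart, and the log2 fold change of 1.31 (SE 0.78) did not pass (edgeR adjusted p = 0.673). Without brain replicate 2 it was 2.88 and passed (adjusted p = 0.000192), and without brain replicate 1 it was 0.50. An antisense gene, Gm45667, overlaps 22.5% of the exon length of Cavin3, and since the use of strand in the counting is not stated, the counts of Cavin3 are uncertain. The log2 ratio of Cavin1 to Cav1 counts was 3.07 and 3.29 in brain ECs, against 1.70 and 2.28 in dura mater ECs. That of Cavin2 to Cav1 was 2.93 and 2.87 in brain and 0.63 and 1.08 in dura mater ECs, and that of Cavin3 overlapped (−1.28 and 0.67, against −0.50 and 0.09). Only the change of such a ratio between the tissues can be read, since counts of different genes are not on 1 scale, and these changes were not tested. All ratios to Cav1 share its counts, so the higher Cav1 counts in dura mater ECs enter each of them.

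**Figure D2:**
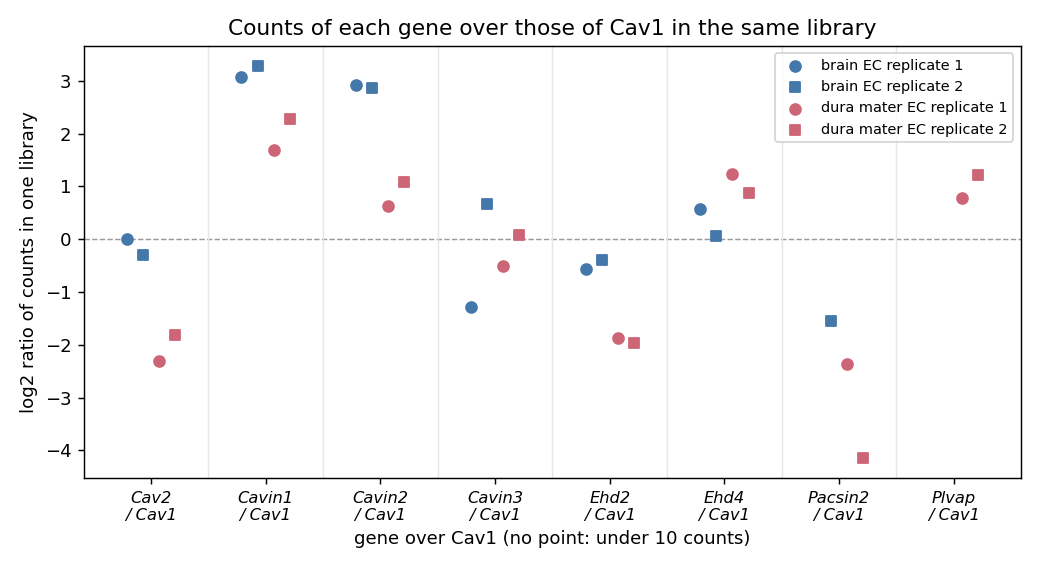
Log2 ratio of the counts of each gene to those of Cav1 in the same library, brain ECs in blue and dura mater ECs in red, with circles for replicate 1 and squares for replicate 2 and no point where either gene had fewer than 10 counts. Cav2, Cavin1, Cavin2 and Ehd2 lie lower against Cav1 in both dura mater libraries, Ehd4 lies higher and Cavin3 overlaps.

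Of the neck genes, Ehd4 stood apart from Ehd2. Ehd4, an EHD ATPase that is found with EHD2 at caveolae of ECs and also on endosomes (chromosome 2, 120089175 to 120154606, minus strand), was at 221 and 212 CPM in brain ECs and 1273 and 981 CPM in dura mater ECs. The groups were separated by 4.45-fold at the nearest libraries, while brain libraries differed by 1.04-fold and dura mater libraries by 1.30-fold. The log2 fold change was 2.38 (SE 0.35, 95% interval 1.53 to 3.23), and its edgeR adjusted p of 0.0548 missed the threshold, although the gene ranked 69 by p among the 9347. Of the alternatives, the prior count of 0.5 enters only the log2 fold change and cannot move that p. Ehd4 was also refitted under the other alternatives. It passed under 9 of 14 alternatives, among them DESeq2 (adjusted p = 1.02e-05), limma-voom (0.0203) and the filter of 10 counts in every library (0.00327). It did not pass without either dura mater library (adjusted p = 0.195 without replicate 1 and 0.0506 without replicate 2), and the log2 fold change stayed between 2.04 and 2.54 over the alternatives.

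Ehd2, the ATPase that holds caveolae at the surface (chromosome 7, 15946958 to 15967567, minus strand), was at 99.6 and 153 CPM in brain ECs and 147 and 137 CPM in dura mater ECs, with both dura mater values inside the range of brain. Its log2 fold change was 0.17 (SE 0.62, 95% interval −1.32 to 1.67, edgeR adjusted p = 1.00), and it turned to −0.15 without brain replicate 1. The log2 ratio of Ehd4 to Ehd2 counts, a pair chosen after the values were seen, was 1.15 and 0.47 in brain ECs, against 3.11 and 2.84 in dura mater ECs. Pacsin2, a membrane-bending protein of the neck (chromosome 15, 83375607 to 83464606, minus strand), had 1 and 912 counts in brain ECs, against 1400 and 492 in dura mater ECs. With the brain libraries this far apart no direction could be read: the log2 fold change of 0.96 had an SE of 2.31 (edgeR adjusted p = 1.00), turned to −0.34 without dura mater replicate 1 and was 8.35, past the threshold, without brain replicate 2.

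**Figure D3:**
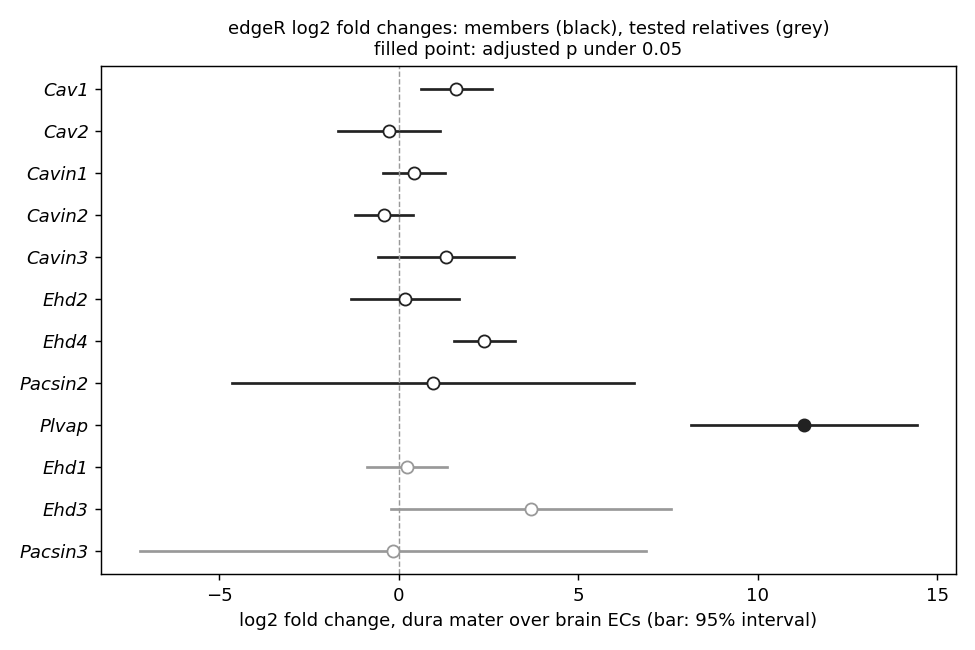
Log2 fold change, dura mater over brain ECs, of the 9 genes (black) and their 3 tested relatives (grey) in edgeR, with bars for the 95% interval and a filled point for an adjusted p under 0.05. The interval of Plvap (8.13 to 14.43), Ehd4 (1.53 to 3.23) and Cav1 (0.63 to 2.60) lies above 0, those of the other genes include 0, and the point of Plvap alone is filled.

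Read as a list, 7 of the 9 genes had a log2 fold change above 0, and the median was 0.96 beside −0.01 over all genes tested. That median is the value of Pacsin2, whose direction could not be read, and the median of the other 8 genes was 0.87. It depended on single libraries: without brain replicate 1 the median of the 9 was 0.08 (5 above 0) beside 1.03 over all genes, without brain replicate 2 it was 1.79 beside 0.95, and without dura mater replicate 1 it was 0.54 (5 above 0) beside 0.141. In 4 of the 9 (Plvap, Ehd4, Cav1 and Cavin3) both dura mater libraries lay above both brain libraries, as they did for 26.2% of all genes tested, and in 0 of the 9 they lay below, as they did for 16.9%. At an unadjusted p under 0.05 there were 3 higher members (Plvap, Ehd4 and Cav1), beside 7.04% of all genes tested that were higher. Groups did not overlap in either direction for 43.1% of all genes tested.

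The other settings called more or fewer genes of every kind, so the count of the 9 is given beside the share of all genes each called. With 1 of the 9 passing, Plvap was the one called with the median-ratio scaling of edgeR (RLE, 0.567% of all genes), library size alone (0.621%), without dura mater replicate 1 (0.703%) and without dura mater replicate 2 (0.965%), and Ehd4 was the one called with limma-voom (0.856%) and with the filter of 10 counts in every library (2.95%). Plvap and Ehd4 both passed with upper-quartile scaling (0.749%), no filter (2.39%), the replicate number as a term (2.4%), the newer dispersion estimate of edgeR (3.27%), DESeq2 (8.67%) and without brain replicate 1 (6.38%). Without brain replicate 2, which called 6.05% of all genes, 5 of the 9 passed, namely Plvap, Ehd4, Cav1, Cavin3 and Pacsin2.

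Together the 9 genes held 0.306% and 0.437% of counts in the brain EC libraries and 0.601% and 0.746% in the dura mater EC libraries (mean 0.372% ± 0.0930 and 0.674% ± 0.102, SD, n = 2). The cavins held 0.302% ± 0.0826 in brain ECs, against 0.364% ± 0.0993 in dura mater ECs, a difference within the spread between replicates. The caveolins held 0.0298% and 0.03511% in brain ECs, against 0.06415% and 0.06955% in dura mater ECs, without overlap. Cav1 was higher in both dura mater libraries, whereas Cav2 by itself overlapped between the tissues. Ehd2, Ehd4 and Pacsin2 together held 0.0368% ± 0.00665 in brain ECs, against 0.134% ± 0.0246 in dura mater ECs, and Plvap held 2.90e-05% ± 4.10e-05, against 0.109% ± 0.0237 (SD, n = 2). Of Ehd2, Ehd4 and Pacsin2, Ehd4 alone did not overlap between the tissues.

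Caveolins and cavins are also made by fibroblasts, pericytes and smooth muscle, adipocytes and muscle, so markers of these cells were summed. The 6 fibroblast markers summed to 7.38 and 50.7 CPM in brain ECs and to 337 and 354 CPM in dura mater ECs, where Col1a1, Col1a2, Col3a1 and Dcn held nearly all of the counts and Pdgfra had 0 and 1. The 9 mural markers summed to 621 and 1075 CPM in brain and 1134 and 679 CPM in dura mater ECs, so they overlapped between the tissues. The 5 lymphatic markers summed to 123 and 144.5 CPM in brain and 367 and 408 CPM in dura mater ECs. In brain ECs Flt4 held nearly all of these counts (1777 and 1905), and Prox1, Lyve1 and Mmrn1 had 0. In dura mater ECs Prox1 had 492 and 125 counts, Lyve1 911 and 1776, and Mmrn1 1132 and 690. The part of these cell types in the values of Plvap, Cav1, Cavin3 and Ehd4 was not tested. The 5 adipocyte markers were near 0 throughout, at 0.0690 to 1.36 CPM in sum, and so were the 5 markers of striated muscle, at 0.680 to 3.92 CPM. Leukocyte markers summed to 1.21 to 48.6 CPM, and the erythroid ones to 26510 and 37940 CPM in brain ECs against 2196 and 1123 CPM in dura mater ECs. The erythroid sum includes Hbb-bs and Hbb-b1, which had nearly equal counts (111254 and 110614 in brain replicate 1). Whether the same reads were counted under both symbols was not tested. Neural markers were low in most libraries, but neuron and astrocyte markers were higher in both dura mater libraries. Neuron markers summed to 0.897 and 0.227 CPM in brain ECs and 20.95 and 5.94 CPM in dura mater ECs. For astrocytes the sums were 0.276 and 0.151 CPM in brain ECs and 82.3 and 4.53 CPM in dura mater ECs. Oligodendrocyte markers overlapped, at 0.302 to 106 CPM, and Mbp held most counts of the highest libraries.

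The relatives of these genes belong to the same families but are not among the 9. The muscle forms were hardly counted, with Cav3 listed at 0 in each library and Cavin4 (older symbol Murc) at 1 count in brain replicate 2 alone. Ehd1, an endosomal EHD ATPase, was at 205 and 361 CPM in brain ECs and 342 and 324 CPM in dura mater ECs, with overlapping groups (log2 fold change 0.23, SE 0.46, edgeR adjusted p = 1.00). Ehd3 had 9 and 481 counts in brain ECs, against 3347 and 3815 in dura mater ECs, so both dura mater libraries were higher, 6.43-fold at the nearest libraries, but the brain libraries were 58.6-fold apart. Its log2 fold change of 3.70 (SE 1.61) did not pass (edgeR adjusted p = 0.469), and it passed when either brain library was left out, with the newer dispersion estimate of edgeR and with no filter on low counts. Pacsin3 had 1 and 468 counts against 199 and 274, and Pacsin1 was counted at 145 in dura mater replicate 2 and at 0 to 3 elsewhere, so neither gave a direction.

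The 4 other lists of pathway genes were read by their counts. Among 10 genes of transcytosis in brain ECs, 3 passed and all 3 were lower in dura mater ECs, as were 0.182% of all genes tested, while the list median was −0.64. Mfsd2a, a lipid transporter that keeps caveolar transcytosis low in brain capillaries, was at 1523 and 1339 CPM in brain ECs and 71.2 and 30.0 CPM in dura mater ECs, a log2 fold change of −4.82 with an SE of 0.55 (edgeR adjusted p = 0.0248). Tfrc, the transferrin receptor, fell from 1175 and 811 CPM to 40.0 and 65.0 CPM (log2 fold change −4.24, SE 0.48, edgeR adjusted p = 0.0248). Slc2a1, the glucose transporter of the barrier, fell from 11890 and 10240 CPM to 1496 and 1642 CPM (log2 fold change −2.82, SE 0.25, edgeR adjusted p = 0.0232), and an antisense gene overlaps 2.99% of its exon length. All 3 passed in each of the 14 refits, and 0 of the 10 at an adjusted p under 0.01. Slc2a1 is a carrier and Mfsd2a a transporter, and Tfrc is the transcytosis receptor among the 3.

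None of the 12 tested genes that work with caveolae passed in edgeR, and the median was 0.39. The unadjusted edgeR p was under 0.05 for 1 of them, beside 10% of all genes tested, and DESeq2 called 1, beside 8.67%. The former was Cd36, a fatty acid receptor found in caveolae, which had 1 and 3 counts in brain ECs, against 453 and 665 in dura mater ECs. Its log2 fold change was 7.03 with an SE of 2.78 (edgeR adjusted p = 0.466). Nos3, the endothelial nitric oxide synthase that caveolin-1 binds, was at 417 and 188 CPM in brain and 201 and 297 CPM in dura mater ECs, with overlapping groups. Of 13 tested genes that regulate diaphragms, fenestrae or the Wnt signal of brain vessels, 0 passed in edgeR and 3 in DESeq2, which called 8.67% of all genes, and the median was 0.12. At an unadjusted p under 0.05, Vegfa, Nrp1, Nrp2 and Nedd9 were higher and Sox17 lower, beside 10% of all genes tested in either direction and 7.04% higher. Nrp1, a co-receptor for VEGF, was at 247 and 311 CPM in brain and 1287 and 1624 CPM in dura mater ECs, a log2 fold change of 2.38 with an SE of 0.35 (edgeR adjusted p = 0.0544). The genes of this paragraph were named after their values were seen.

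**Figure D4:**
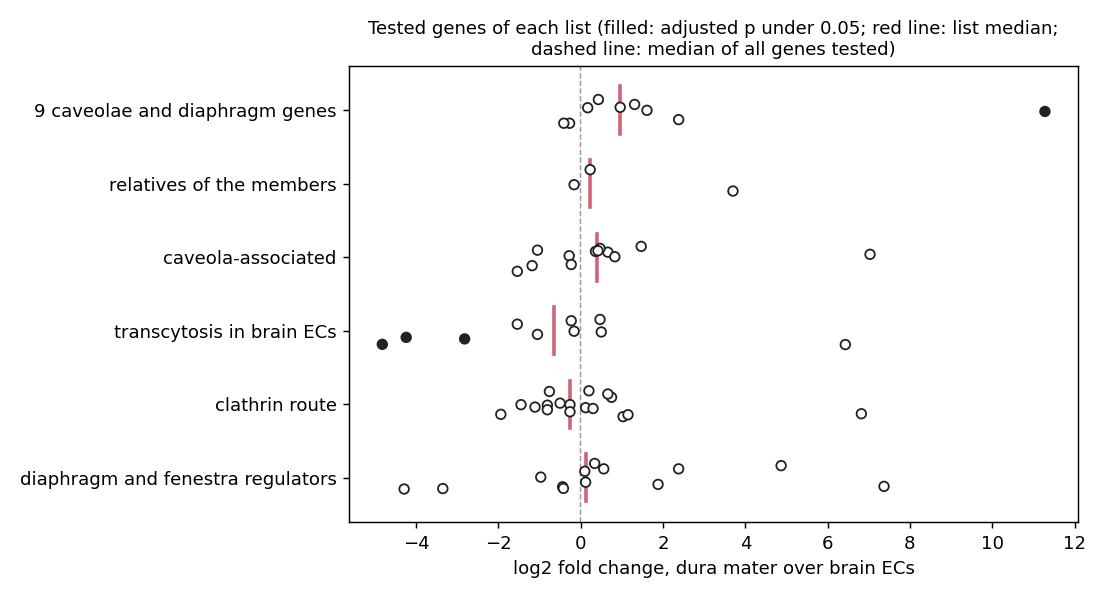
Log2 fold change, dura mater over brain ECs, of each tested gene of the 9 caveolae and diaphragm genes and of the 5 related lists, with filled points for an adjusted p under 0.05, a red line at each list's median and a dashed line at the median of all genes tested (−0.01). Plvap at 11.28 is the filled point on the right, and the 3 filled points on the left are Mfsd2a, Tfrc and Slc2a1.

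The genes whose pattern over the 4 libraries was nearest to that of Plvap, by the Euclidean distance of centred log2 CPM among genes with a mean of at least 10 CPM, were Pdlim1 (distance 1.24), Tulp2 (1.44), Fabp4 (1.54), Cyp26b1 (1.77) and Aqp1 (1.77). Their counts ran from 0 to 7 in brain ECs and were at least 2668 in dura mater ECs. All 5 passed in edgeR, with log2 fold changes of 9.95 to 11.52, and their adjusted p in limma-voom ran from 0.0499 to 0.0699. Fabp4 and Aqp1 were also picked by the study from these libraries. Exons of Tulp2 are overlapped by the antisense genes Dhdh, Gm45808 and Ppp1r15a, so its counts are uncertain. The genes nearest to Cav1 were Smap2 (0.181), Mmrn2 (0.212), Josd1 (0.243), Bod1 (0.262) and Jun (0.264), with log2 fold changes of 1.35 to 1.78 and edgeR adjusted p from 0.148 to 0.968. The antisense gene Junos covers 7.28% of the exon bases of Jun. With 4 libraries, of which 2 share each tissue, nearness in pattern is a description only.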

How the data were processed

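The authors deposited raw counts for each gene symbol, in a separate table for each of the 4 libraries. The study's methods name TopHat for mapping and cufflinks for the comparison, whereas the submitters' processing notes name Bowtie2, edgeR and mm10, the same assembly as GRCm38. A Lexogen Quant-Seq kit was used on total RNA. The counting step, the annotation, the use of strand and the use of molecular identifiers are not given in the sources used here. Groups and replicate numbers were taken from the sample titles, and the labels give no batch or date.

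Counts were tested with edgeR 4.0.16 in R 4.3.3 (quasi-likelihood F-test, TMM factors, filterByExpr, a model of tissue alone), and p-values were adjusted by Benjamini-Hochberg over 9347 genes. This test stands in for cufflinks, which needs alignments. Log2 fold changes used a prior count of 2. The alternative prior count of 0.5 enters only the log2 fold changes, so its adjusted p-values repeat those of the main fit. SEs were derived from the log2 fold change and its F value, and 95% intervals are that SE times the t quantile of the fit. Ratios needed 10 counts in both genes. Gene positions are from GENCODE M21. Alternatives were DESeq2 1.42.0, limma-voom (limma 3.58.1), edgeR's newer dispersion estimate, other scalings and filters, a replicate block, a prior count of 0.5, an adjusted p of 0.01, and each library left out.

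Members, lists and marker genes were chosen with earlier results of these data known. Named were the 9 genes, their 6 relatives, at most 6 passing genes of each further list, and the 5 genes nearest in pattern to Cav1 and to Plvap. Genes outside that rule are marked.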

Additional observations from a re-analysis of the deposited data

How the results depend on the processing

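Against 57 genes differing in all (40 higher, 17 lower), DESeq2 gave 810, the newer edgeR dispersion estimate 306, no filter on low counts 326, 10 counts in every library 141 and an adjusted p under 0.01 gave 1. Limma-voom gave 40 higher and 40 lower. Leaving out 1 library gave 80 to 740 (740 without brain replicate 1, 701 without brain replicate 2, 97 without dura mater replicate 2). Of the 9 genes, 1 passed as reported (Plvap), and 2 (Plvap and Ehd4) passed with DESeq2, the newer dispersion estimate, upper-quartile scaling and no filter. Limma-voom and the filter of 10 counts each gave 1, which was Ehd4 and not Plvap. An adjusted p under 0.01 left 0 of the 9 in edgeR, against 3 at an unadjusted p under 0.05. Leaving out 1 library gave 1 to 5 of the 9, the highest without brain replicate 2, where Cav1, Cavin3 and Pacsin2 joined Plvap and Ehd4; the 1 sample left in an arm is then assumed to vary like the other tissue. The median log2 fold change of all genes was −0.007 as reported. It was −0.098 with RLE scaling, 0.038 with library size alone, 0.132 with upper-quartile scaling and 0.283 with limma-voom.

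The titles number the libraries 1 and 2 in each tissue, but do not say that a number marks shared mice. Libraries with the same number did not deviate together (correlation across genes −0.0230). Fitting the replicate number as a block gave 224 genes and 2 of the 9 (Plvap and Ehd4).

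The direction turned in 4 of the 124 refitted values of the 9 genes, those of Ehd2 and Pacsin2. Over the libraries left out, Ehd2 ran from −0.15 to 0.45 and Pacsin2 from −0.34 to 8.35; of the relatives, Ehd1 ran from −0.16 to 0.64 and Pacsin3 from −1.20 to 6.25. Pacsin3 also turned to 3.05 with limma-voom, 0.02 with upper-quartile scaling and 2.48 with the replicate block. The cause of these changes was not tested. Erythroid counts taken out of the totals moved the share held by the 9 genes by less than the spread between replicates. For Plvap in brain replicate 1, 0 counts allow up to 0.207 CPM (3 counts) if counting error alone is taken into account. The exact Poisson interval, the kind given above for brain replicate 2, ends at 3.69 counts. Neither limit covers the disagreement between replicates. In brain ECs, 1290 symbols had 7 or fewer counts in replicate 1 and 64 or more in replicate 2, and 1282 had the reverse. The level of Plvap in brain ECs is therefore not capped by these limits.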

Other observations

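The clathrin route, the other main path of uptake in ECs, was read by the same counts. Of 17 tested genes of this route, 0 passed in edgeR and 8 had a log2 fold change above 0. The list median was −0.26, beside −0.01 over all genes tested. The unadjusted edgeR p was under 0.05 for 1 gene, beside 10% of all genes tested. DESeq2 called 1 other gene, as higher in dura mater ECs, beside 8.67% of all genes called. The gene at an unadjusted p under 0.05, named after its values were seen, was Picalm, a clathrin assembly protein, with 911 and 1212 CPM in brain ECs and 550 and 436 CPM in dura mater ECs, a log2 fold change of −1.11 with an SE of 0.35 (edgeR adjusted p = 0.396).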
